A study of Mus musculus with 703 samples.

Results

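The members were 10 genes of the antioxidant and NRF2 target set, chosen by symbol as Nqo1, Gclc, Gclm, Txnrd1, Gsr, Sod1, Sod2, Gpx1, Glrx2 and Hmox1, out of 19088 genes in the count table. All 10 passed the filter on low counts in each comparison. They were measured by bulk RNA sequencing in gastrocnemius muscle of 703 mice, 1 library per animal. The mice came from 20 CC-RIX strains, each an F1 cross between Collaborative Cross lines (inbred mice whose genomes are different mosaics of shared founders). The 20 strains used 19 lines, so many strains share a line. From 6 weeks of age the animals ate a diet labelled 10% fat + fiber or 44% fat + fiber. Of the untreated animals 234 ate 10% fat and 235 ate 44% fat, and 236 were female and 233 male. Animals given metformin, an antidiabetic drug supplied here at 5 mg/mL from 7 months of age, were 57 females and 59 males on 10% fat, and 59 females and 59 males on 44% fat. The study held cohorts of 6 and 12 months and the labels give no animal's age, so a difference between treated and untreated animals cannot be told apart from a difference in age.

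NRF2, encoded by Nfe2l2, is a transcription factor that KEAP1 holds in the cytoplasm and marks for degradation. Oxidants and electrophiles modify KEAP1, and NRF2 then enters the nucleus, pairs with small MAF proteins and binds antioxidant response elements, at which BACH1 is a repressor. Its classical targets make glutathione (Gclc and Gclm encode the catalytic and modifier subunits of glutamate-cysteine ligase), reduce thioredoxin (Txnrd1), reduce quinones (Nqo1) and break down haem (Hmox1). Gsr returns oxidised glutathione to its reduced form, Gpx1 uses glutathione to remove hydrogen peroxide, and Glrx2 is a glutaredoxin found largely in mitochondria. Sod1 in the cytosol and Sod2 in the mitochondrial matrix convert superoxide to hydrogen peroxide. In muscle, contraction and mitochondrial respiration are the usual sources of these oxidants.

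Total counts per library ran from 27.4M to 96.1M with a median of 47.9M, and no member had a count of 0 in any library. Hmox1 had the fewest counts, with a lowest value of 66 and a median of 178, and Sod2 the most, with a median of 11445. The tissue label was checked with 7 skeletal muscle genes, whose summed level in untreated libraries ran from 77241 to 143950 CPM (the usual per-library scaling of counts to a fixed total). The sequencing identifiers in the labels form a low block (the lower range, 544 libraries) and a high block (the upper range, 159 libraries), and the strain (CC009/UncJ x CC013/GeniUncJ)F1 occurs in the upper range alone. For 15 libraries the expression went against the sex on the label and for 4 against the strain. In 32 libraries the summed level of 7 hepatocyte markers was above 100 CPM, against a median of 2.73 CPM in untreated libraries, and 1 library from a treated female stood apart in Txnrd1. All libraries were kept in the fits, and values without them are given where a result moved.

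Positions are those of the deposited annotation on GRCm38. The glutathione genes lie at chr9:77754535-77794485 (Gclc), chr3:122245557-122270732 (Gclm), chr8:33652523-33698163 (Gsr), chr9:108338903-108340343 (Gpx1) and chr1:143716338-143749676 (Glrx2). Txnrd1 lies at chr10:82859206-82897724, Sod1 at chr16:90220742-90226322, Sod2 at chr17:13007839-13018119, Nqo1 at chr8:107388225-107403206 on the minus strand and Hmox1 at chr8:75093591-75100596. The values are sums over each gene's transcripts. Some members share sequence with other genes, so their counts are less certain. Exons of Gclm overlap the predicted genes Gm17494 and Gm6061 over 540 bases. Transcripts of Gclm also match those of Gm14046, Gm17494 and Ppia at 95% identity or more, over up to 297 bases. Sod1 matches the predicted gene Gm8566 over 465 bases, and a long transcript model of Sod2 matches other genes over up to 3110 bases. Glrx2 matches 36 genes over at least 250 bases.

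Promoter sequences of RefSeq on GRCm38.p6, from 250 bases before to 50 bases after a start site, were available for 7 members, Nqo1, Gclm, Txnrd1, Sod1, Sod2, Gpx1 and Glrx2. They are shown because NRF2 binds the antioxidant response element, whose core TGACNNNGC was searched on both strands with N for any base. It occurred once each in Gclm, in 1 of 3 Txnrd1 promoters and in Sod1. That was 3 of 12 member promoters, against 12.4% of the 32851 promoters searched. By gene it was 3 of 7 members, against 14% of 27025 genes. The capitals mark the match, which in each case is on the reverse strand, and its first base is 134 bases before the start site in Gclm, 92 bases before it in Txnrd1 and 56 bases before it in Sod1. A match is a description of the letters and not a tested site. Sequence outside this window was not searched, so a promoter without a match can have a site farther away.
Gclm, chr3:122245307-122245606, plus strand: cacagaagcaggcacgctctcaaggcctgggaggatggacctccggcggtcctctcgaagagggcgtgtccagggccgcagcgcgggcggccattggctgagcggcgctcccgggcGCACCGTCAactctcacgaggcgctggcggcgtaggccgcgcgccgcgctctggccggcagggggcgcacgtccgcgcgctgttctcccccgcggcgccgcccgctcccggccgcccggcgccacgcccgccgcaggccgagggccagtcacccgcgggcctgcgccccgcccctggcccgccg
Txnrd1, chr10:82858956-82859255, plus strand: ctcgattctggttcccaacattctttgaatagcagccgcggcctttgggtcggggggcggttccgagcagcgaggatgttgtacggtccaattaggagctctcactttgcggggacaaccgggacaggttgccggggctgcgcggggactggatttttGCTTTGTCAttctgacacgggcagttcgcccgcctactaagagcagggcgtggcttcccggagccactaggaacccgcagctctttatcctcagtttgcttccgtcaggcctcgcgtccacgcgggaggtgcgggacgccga
Sod1, chr16:90220512-90220811, plus strand: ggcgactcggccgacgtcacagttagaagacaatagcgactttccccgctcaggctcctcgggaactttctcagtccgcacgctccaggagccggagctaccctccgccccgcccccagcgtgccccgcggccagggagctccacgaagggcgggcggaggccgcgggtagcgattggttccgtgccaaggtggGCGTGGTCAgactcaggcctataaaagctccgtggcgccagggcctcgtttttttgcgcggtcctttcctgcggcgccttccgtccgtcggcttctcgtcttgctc

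Compared per kilobase of exon in the 469 untreated libraries, the superoxide dismutases and Gpx1 were the most abundant members. Sod2 had 24.2 ± 3.94 CPM per kb (SD, n = 469), Gpx1 17.9 ± 5.51 and Sod1 16.01 ± 2.29. The reductases followed, with Txnrd1 at 8.88 ± 1.55 CPM per kb, Nqo1 at 7.99 ± 1.88 and Gsr at 7.10 ± 0.949. At the low end were Gclc with 2.59 ± 0.466 CPM per kb, Glrx2 with 2.25 ± 0.331, Hmox1 with 2.14 ± 0.602 and Gclm with 1.75 ± 0.356. In this order Gpx1 and Sod1, Txnrd1 and Nqo1, Nqo1 and Gsr, and each neighbouring pair from Gclc down to Gclm differed by less than the larger of their SDs. These are averages over all annotated exons and depend on which transcripts the muscle uses.

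**Figure D1:**
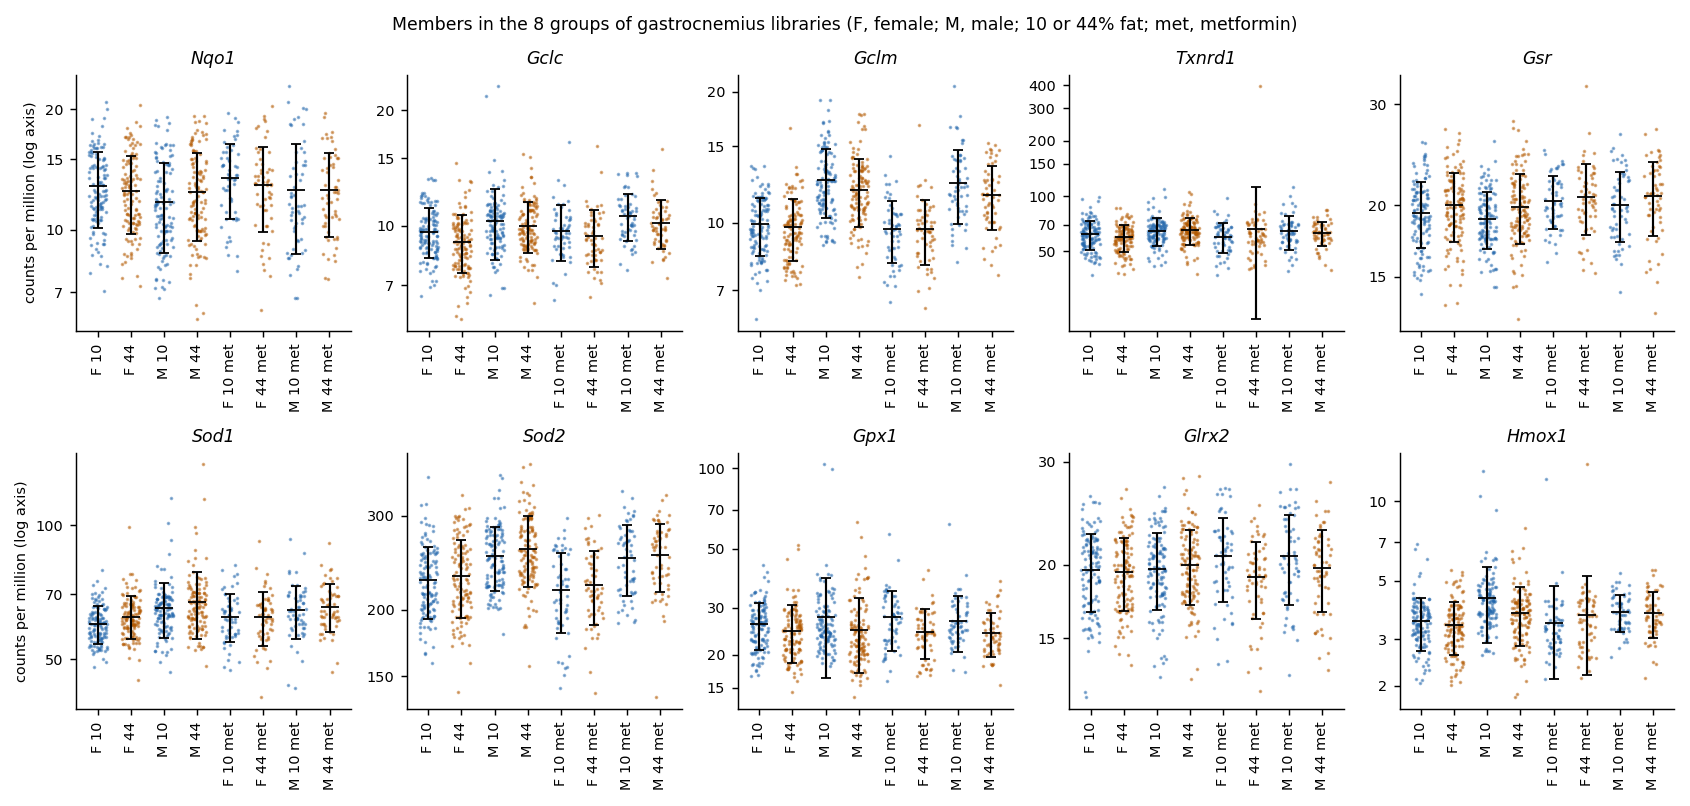
Level in CPM (log axis) of the 10 members in the 8 groups of libraries (F, female; M, male; 10 or 44% fat; met, metformin), with 1 point per library and bars for the arithmetic mean ± SD. The groups overlap for every member, Gclm and Sod2 lie higher in males, and the highest Txnrd1 library, at 396 CPM, is a treated female on 44% fat.

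The comparison of strains asked how far the level of each gene followed genetic background. All 10 members differed between strains in untreated animals (edgeR quasi-likelihood test, adjusted p from 1.0e-99 for Sod2 to 2.5e-05 for Sod1), in a comparison that called 95.4% of all genes. In the upper identifier range alone, with 12 strain terms, 9 of 10 were called and Hmox1 was not (adjusted p = 0.16, against 2.5e-12 in all untreated animals). The share of variance between strains (omega squared on log2 CPM) set the members further apart. It was 59.1% for Glrx2, 57.9% for Sod2, 51.8% for Nqo1 and 39.7% for Txnrd1. Gsr and Gpx1 each had 32.9% and 32.8%. Gclm had 16.8%, Gclc 16.05%, Hmox1 10.98% and Sod1 6.73%. Glrx2, Sod2, Gclm and Sod1 share sequence with other genes, as given above, and the part of this in their values was not tested. The median over the members was 32.9%, and over all 16384 genes tested it was 15.3%, with quartiles of 7.81% and 28.8%. Between the sexes the share was 29.01% for Gclm, 11.6% for Sod2, 8.24% for Hmox1 and 7.82% for Sod1, and diet took at most 2.83%, in Gpx1.

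Nqo1, the quinone reductase that is the most used marker of NRF2 activity, was highest in (CC011/UncJ x CC027/GeniUncJ)F1. There it ran from 13.8 to 19.2 CPM with a median of 17.2 and a mean of 17.1 ± 1.49 (SD, n = 24). It was lowest in (CC004/TauUncJ x CC019/TauUncJ)F1, from 6.497 to 12.0 CPM with a median of 9.25 and a mean of 9.18 ± 1.34 (n = 26), so these strains did not overlap. Of the 19 steps between neighbouring strains in its order, 1 was larger than the SD within the strains, that from the highest to the next strain. The 4 strains with the line CC019/TauUncJ held places 16 to 20 in that order, with means from 9.18 to 10.8 CPM, and the 3 strains with CC011/UncJ held places 1 to 7, with means from 13.2 to 17.1 CPM. These lines were picked after the values were seen, and the strains that share a line are not independent.

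Sod2 was highest in (CC043/GeniUncJ x CC011/UncJ)F1, from 257 to 374 CPM with a median of 318 and a mean of 318 ± 31.3 (n = 24). In the next strain, (CC011/UncJ x CC027/GeniUncJ)F1, the mean was 277 ± 23.6 CPM (n = 24), and this step was again the 1 of 19 beyond the spread. The lowest, (CC019/TauUncJ x CC042/GeniUncJ)F1, ran from 140 to 276 CPM with a median of 193 and a mean of 201 ± 32.9 (n = 24), so the extremes overlapped slightly. The mean differed 1.58-fold between the highest and the lowest strain. The 3 strains with CC011/UncJ held places 1 to 6, from 266 to 318 CPM.

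Txnrd1 was highest in (CC051/TauUncJ x CC059/TauUncJ)F1, from 55.6 to 105.3 CPM with a mean of 74.4 ± 12.5 (n = 24). It was lowest in (CC009/UncJ x CC013/GeniUncJ)F1, from 37.8 to 51.8 CPM with a mean of 44.8 ± 3.65 (n = 10), and next lowest in (CC030/GeniUncJ x CC002/UncJ)F1, at 46.9 ± 5.45 CPM (n = 24). These low strains lay 9.38 CPM or more below the other 18, the only step beyond the spread. Glrx2 went the other way in the first of them, with its highest mean of 23.9 ± 2.62 CPM in (CC009/UncJ x CC013/GeniUncJ)F1. Since that strain has no library in the lower identifier range, strain and range cannot be told apart for it. The lowest Glrx2 mean was 15.5 ± 2.34 CPM in (CC024/GeniUncJ x CC002/UncJ)F1 (n = 24), the 1 step of 19 beyond the spread was that from 17.7 to 16.1 CPM above the lowest 3 strains, and the 5 strains with the line CC002/UncJ held places 13 to 20, from 15.5 to 18.8 CPM.

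**Figure D2:**
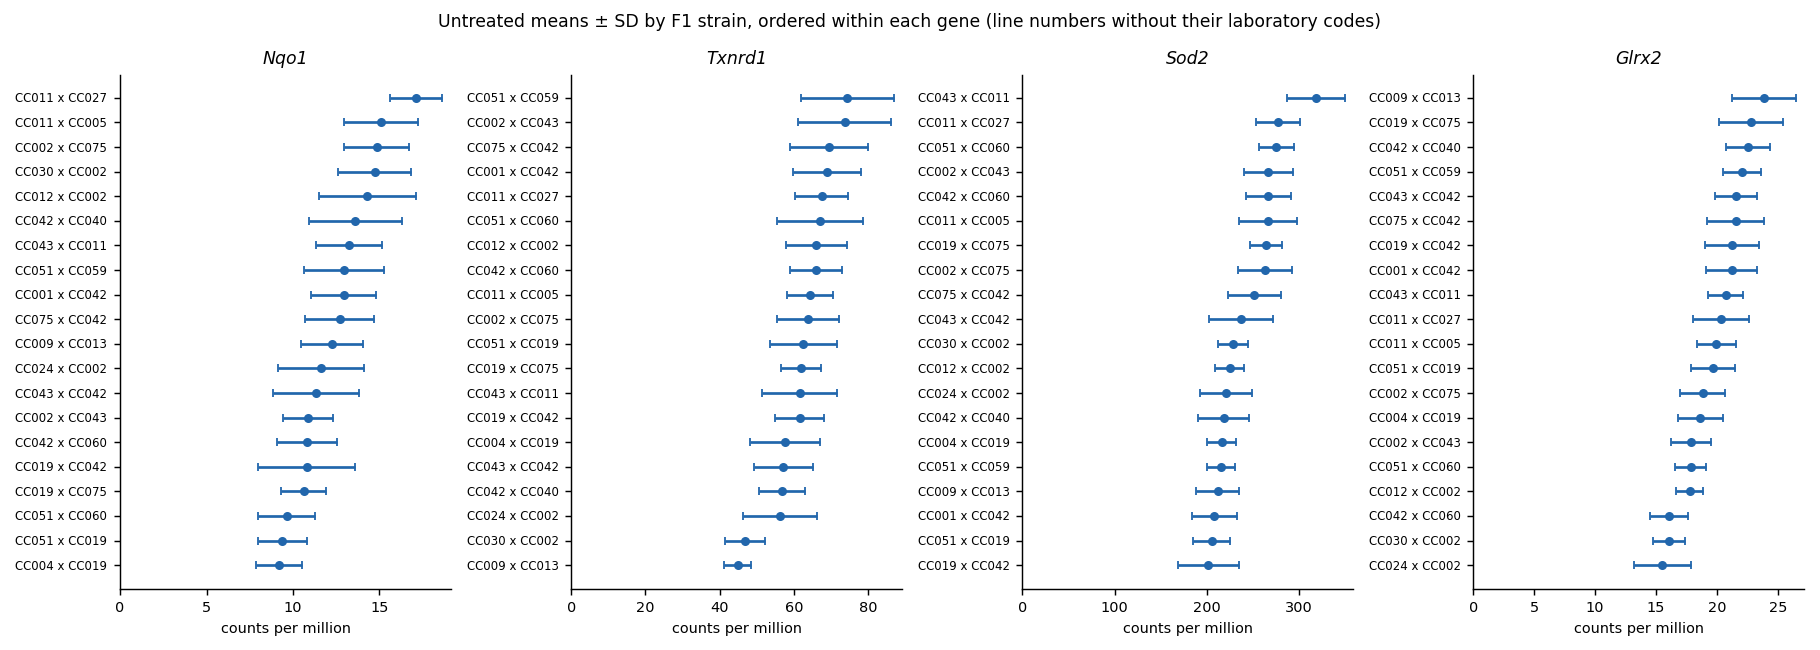
Untreated mean ± SD in CPM of Nqo1, Txnrd1, Sod2 and Glrx2 in the 20 F1 strains (n = 10 to 26), each panel ordered by its own means, with line numbers printed without their laboratory codes. The highest and lowest Nqo1 strains, at 17.1 and 9.18 CPM, are separate, and the order of strains differs between the genes.

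Gpx1 strain means ran from 20.2 ± 5.00 CPM in (CC002/UncJ x CC043/GeniUncJ)F1 to 34.1 ± 16.7 CPM in (CC001/UncJ x CC042/GeniUncJ)F1, and 0 of 19 steps exceeded the spread. The 2 strains with the highest means had wide SDs, and both held libraries that carried hepatocyte markers. The highest 2 Gpx1 values in the series, 103.4 and 99.3 CPM, belonged to males on 10% fat with hepatocyte markers summing to 3600 and 6145 CPM, in (CC042/GeniUncJ x CC040/TauUncJ)F1 and (CC001/UncJ x CC042/GeniUncJ)F1. Both libraries went against a label. Without the libraries above 100 CPM of hepatocyte markers, (CC051/TauUncJ x CC059/TauUncJ)F1 was highest at 31.98 ± 5.70 CPM (n = 22). (CC001/UncJ x CC042/GeniUncJ)F1 then had 31.2 ± 9.66 CPM (n = 22). (CC042/GeniUncJ x CC040/TauUncJ)F1 went from 33.9 ± 15.7 CPM (n = 24) to 30.8 ± 5.42 CPM (n = 23). The highest remaining library of (CC001/UncJ x CC042/GeniUncJ)F1, at 62.7 CPM of Gpx1, had hepatocyte markers summing to 1.74 CPM. Over all libraries Gpx1 averaged 35.8 ± 19.1 CPM in the 32 with hepatocyte markers and 25.3 ± 5.89 CPM in the other 671. Gclc and Gclm, whose enzyme is abundant in liver, averaged 11.6 ± 3.54 and 13.1 ± 2.93 CPM in those 32 libraries and 9.74 ± 1.52 and 10.8 ± 2.15 CPM elsewhere. Among the remaining members, the strain means of Gsr ran from 16.9 to 22.4 CPM, of Sod1 from 58.9 to 69.4 CPM, of Gclc from 8.52 to 11.5 CPM, of Gclm from 9.47 to 12.8 CPM and of Hmox1 from 3.11 to 4.76 CPM, with no step between neighbours beyond the spread.

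The comparison of diets asked which members differed with 44% against 10% fat in untreated animals. The 44% diet came with lower Gpx1, Hmox1 and Gclc and higher Gsr, Sod1 and Sod2, all by small amounts. Of the 10 members, 3 were higher and 3 lower, in a comparison that called 10.1% of all genes higher and 10.1% lower. The median log2 fold change was -0.0066 over the members and -0.0030 over all genes, and the median size was 0.047 over the members against 0.035 over all genes. The same 6 members were called in 10 of the 11 alternative fits. In the upper identifier range alone, with 69 untreated libraries, 0 members were called (1 at an unadjusted p under 0.05) and 365 of 16600 genes were.

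Among the glutathione genes, Gclc, the catalytic subunit, ran from 6.54 to 23.1 CPM with a median of 9.73 on 10% fat (n = 234) and from 5.71 to 15.3 CPM with a median of 9.35 on 44% fat (n = 235). The groups overlapped almost wholly, and the fitted log2 fold change was -0.066 ± 0.020 (SE, adjusted p = 0.0077, edgeR), with a lower value in 19 of 20 strains. It was -0.066 ± 0.021 in the lower and -0.078 ± 0.064 in the upper identifier range. Gclm, the modifier subunit, had medians of 10.9 and 10.5 CPM and a log2 fold change of -0.042 ± 0.019, which did not pass the test (adjusted p = 0.11). Without the libraries that carried hepatocyte markers it did, at -0.056 (adjusted p = 0.017).

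Gsr, which recycles glutathione, went the other way. It ran from 14.01 to 25.9 CPM with a median of 19.02 on 10% fat and from 12.6 to 28.01 CPM with a median of 19.8 on 44% fat. Its log2 fold change was 0.057 ± 0.014 (adjusted p = 0.00077), higher in 15 of 20 strains, and it was 0.062 ± 0.016 (lower range) and 0.024 ± 0.035 (upper range). Gpx1, the peroxidase, was lower. Its values were 16.7 to 103.4 CPM with a median of 25.4 on 10% fat and 13.8 to 62.7 CPM with a median of 23.3 on 44% fat. The log2 fold change was -0.12 ± 0.027 (adjusted p = 0.00032), with a lower value in 19 of 20 strains. It was -0.11 ± 0.027 (lower range) and -0.16 ± 0.091 (upper range). Of the 32 libraries with hepatocyte markers, 11 were untreated on 10% fat and 12 untreated on 44% fat. Without them Gpx1 averaged 26.1 ± 5.30 CPM (n = 223) against 24.2 ± 6.42 CPM (n = 223), and the call held. The difference in Glrx2 was 0.0053 ± 0.012 (adjusted p = 0.82), with a 95% interval from -0.019 to 0.030 on the log2 scale.

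Both superoxide dismutases were higher on 44% fat. Sod1 ran from 46.8 to 114.99 CPM with a median of 61.9 on 10% fat and from 44.9 to 137 CPM with a median of 63.2 on 44% fat, a log2 fold change of 0.052 ± 0.016 (adjusted p = 0.011), and 14 of 20 strains had that sign. Sod2 had a median of 235 CPM (159 to 358) on 10% fat and of 244 CPM (140 to 374) on 44% fat, a log2 fold change of 0.037 ± 0.012 (adjusted p = 0.012), and 13 of 20 strains had that sign. Sod1 gave 0.051 ± 0.016 (lower range) and 0.051 ± 0.059 (upper range), and Sod2 0.047 ± 0.012 and -0.0049 ± 0.034. Txnrd1 had medians of 62.9 and 62.5 CPM and a log2 fold change of -0.018 ± 0.017 (adjusted p = 0.50).

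Of the detoxifying enzymes, Nqo1 did not pass the test, with medians of 11.9 CPM (6.76 to 20.9) and 12.3 CPM (5.99 to 20.5) and a log2 fold change of 0.016 ± 0.021 (adjusted p = 0.66). Hmox1, which degrades haem and is abundant in macrophages, ran from 2.05 to 12.98 CPM with a median of 3.75 on 10% fat and from 1.81 to 7.95 CPM with a median of 3.53 on 44% fat. Its log2 fold change was -0.11 ± 0.029 (adjusted p = 0.0021), lower in 16 of 20 strains, and it was -0.13 ± 0.032 (lower range) and -0.026 ± 0.079 (upper range). The 8 macrophage markers summed to a median of 55.6 CPM (10.5 to 157) on 10% fat and 55.5 CPM (7.30 to 110) on 44% fat, and 0 of 8 were called in either direction. Of 5 fibroblast markers, 2 were lower and 0 higher, with summed medians of 576 CPM (148 to 2991) and 522 CPM (171 to 1574). The highest 3 untreated Hmox1 libraries, all males on 10% fat, had 12.98, 10.45 and 9.23 CPM of Hmox1 and fibroblast sums of 1552, 2991 and 1049 CPM, and their macrophage sums, 98.8, 157 and 65.9 CPM, also lay above the median, with the second of them the highest of the untreated libraries. The part of fibroblasts in the Hmox1 difference was not tested, and that of macrophages was not tested on its own. Of 7 adipocyte markers, 5 were higher and 2 lower, with summed medians of 1199 CPM (461 to 2533) and 1297 CPM (524 to 2932). Of 5 endothelial markers 3 were higher and 0 lower, with a median log2 fold change of 0.072, and of 7 slow fibre markers 3 were higher and 0 lower, with a median of 0.059. With scores for adipocyte, macrophage, slow fibre, hepatocyte and red cell markers in the model, the 6 members were still called. Hmox1 was then at -0.091 ± 0.027 (adjusted p = 0.0060, edgeR). In bulk tissue, fewer cells of a type and less RNA per cell cannot be told apart.

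**Figure D3:**
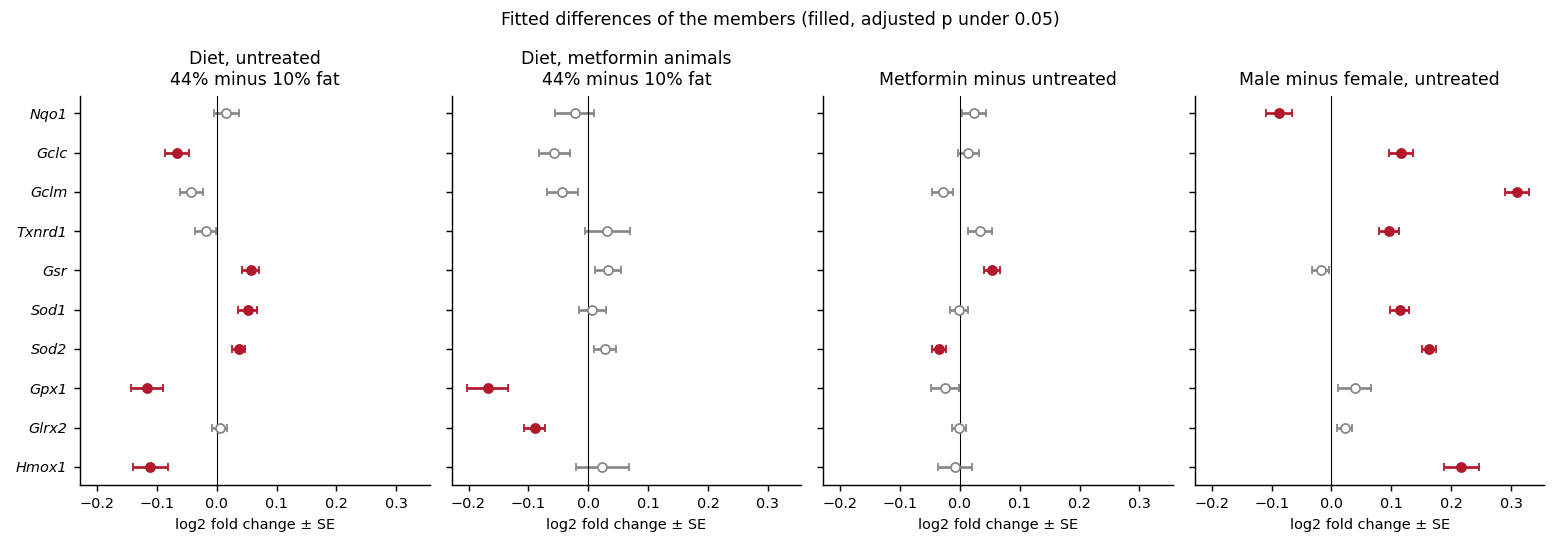
Fitted log2 fold change ± SE of the 10 members for diet in untreated animals, diet in metformin animals, metformin and sex, on a common axis, with filled points for an adjusted p under 0.05. Of the values plotted the farthest from 0 is that of Gclm between the sexes, 0.31, and the diet values of Gpx1 were negative in both treatments.

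In animals given metformin, 44% fat came with lower Gpx1 and lower Glrx2. Of the 10 members, 0 were higher and 2 lower there, in a comparison that called 5.27% of all genes higher and 6.79% lower. Gpx1 ran from 15.97 to 61.7 CPM with a median of 26.2 on 10% fat and from 15.4 to 41.5 CPM with a median of 23.8 on 44% fat, a log2 fold change of -0.17 ± 0.034 (adjusted p = 7.8e-05) and a lower value in 17 of 20 strains. Glrx2 ran from 12.98 to 29.7 CPM with a median of 20.5 on 10% fat and from 12.2 to 27.7 CPM with a median of 19.5 on 44% fat, a log2 fold change of -0.090 ± 0.018 (adjusted p = 7.1e-05) with a lower value in 15 of 20 strains. The other members called in untreated animals gave values of -0.057 ± 0.026 for Gclc, 0.032 ± 0.022 for Gsr, 0.0070 ± 0.022 for Sod1, 0.028 ± 0.018 for Sod2 and 0.024 ± 0.045 for Hmox1, none past the test. The interaction of metformin and diet tested the difference between treatments, and it called 1 member, Glrx2, and 0.0902% of all genes.

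No member was called for a difference in the diet effect between sexes (edgeR, 0.568% of all genes called), and 3 had an unadjusted p under 0.05. These were Nqo1, with an interaction of 0.13 ± 0.043 (adjusted p = 0.16), Txnrd1, at 0.088 ± 0.034 (adjusted p = 0.29), and Hmox1, at -0.12 ± 0.059 (adjusted p = 0.46). With limma voom 0 members were called and 2 had an unadjusted p under 0.05. For a difference in the diet effect between strains, 4.13% of all genes and 0 members were called, with 0 members at an unadjusted p under 0.05 by edgeR or by limma voom. In the upper range alone, with 5 interaction terms, Gclc was called (adjusted p = 0.0011, against 0.93 in all untreated animals).

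The comparison of sexes asked which members differed between untreated males and females. Males had higher Gclm, Hmox1, Sod2, Gclc, Sod1 and Txnrd1 and lower Nqo1 than females, 6 of 10 higher and 1 of 10 lower, where 30.1% of all genes were called higher and 37% lower in males. The median log2 fold change was 0.10 over the members and -0.018 over all genes. Gclm ran from 6.01 to 16.5 CPM with a median of 9.68 in untreated females (n = 236) and from 7.50 to 19.2 CPM with a median of 11.9 in untreated males (n = 233), a log2 fold change of 0.31 ± 0.019 (adjusted p = 5.2e-45), and 20 of 20 strains had that sign. Gclc, the other subunit, had medians of 9.22 CPM (5.71 to 14.6) and 9.83 CPM (6.30 to 23.1) and a log2 fold change of 0.12 ± 0.020 (adjusted p = 2.7e-08). Whether the subunits differed from each other in this was not tested.

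Sod2 had a median of 224 CPM (140 to 354) in females and 251 CPM (157 to 374) in males, a log2 fold change of 0.16 ± 0.012 (adjusted p = 2.8e-36), and 20 of 20 strains had that sign. Hmox1 had medians of 3.40 CPM (2.01 to 6.88) and 3.86 CPM (1.81 to 12.98), a log2 fold change of 0.22 ± 0.029 (adjusted p = 4.5e-12) higher in 19 of 20 strains. Sod1 and Txnrd1 were higher in males by 0.11 ± 0.016 (adjusted p = 2.7e-11) and 0.096 ± 0.017 (adjusted p = 1.3e-07). In the upper range alone Txnrd1 gave -0.0072 ± 0.035, and only Gclm, at 0.27 ± 0.045, and Sod2, at 0.17 ± 0.034, were called. Nqo1 was lower in males, with medians of 12.4 CPM (7.03 to 20.9) in females and 11.7 CPM (5.99 to 19.3) in males and a log2 fold change of -0.088 ± 0.021 (adjusted p = 0.00011). With marker scores in the model Nqo1 was no longer called (-0.051, adjusted p = 0.25). All 7 slow fibre markers and 6 of 7 adipocyte markers were lower in males, with summed medians of 2119 CPM (1183 to 4249) in females and 1368 CPM (488 to 2549) in males for slow fibres, and of 1710 CPM (930 to 2932) and 922 CPM (461 to 2104) for adipocytes. Gsr, Gpx1 and Glrx2 did not pass the test between sexes, with log2 fold changes of -0.018 ± 0.014, 0.038 ± 0.027 and 0.022 ± 0.012.

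The comparison of treated with untreated animals called 2 members, Gsr higher and Sod2 lower, where 8.34% of all genes were called higher and 11% lower. Gsr ran from 12.6 to 28.01 CPM with a median of 19.3 in 469 untreated animals and from 12.96 to 32.2 CPM with a median of 20.3 in 234 treated animals. Its log2 fold change was 0.053 ± 0.013 (adjusted p = 0.0013, edgeR). It was higher in 18 of 20 strains, a count adjusted within each strain for sex and diet but not for identifier range. Sod2 ran from 140 to 374 CPM with a median of 240 untreated and from 137 to 334 CPM with a median of 231 treated. Its log2 fold change was -0.035 ± 0.011 (adjusted p = 0.016, edgeR), and it was lower in 18 of 20 strains by the same kind of count. Both were called in the lower identifier range and neither in the upper. Gsr was 0.081 ± 0.016 in the former and -0.034 ± 0.024 in the latter, and Sod2 -0.039 ± 0.013 and 0.00096 ± 0.022. In the upper range, with 90 treated and 69 untreated animals, 1 of 17683 genes was called for metformin (1160 at an unadjusted p under 0.05) and 0 members were at either threshold. The other 8 members had log2 fold changes from -0.029 ± 0.017 (Gclm) to 0.033 ± 0.020 (Txnrd1) and did not pass the test. Nqo1, at 0.024 ± 0.020, was called only when the range was left out of the model (0.049, adjusted p = 0.043). Markers of other cell types differed with metformin as well. Of 7 adipocyte markers 0 were higher and 2 lower, with summed medians of 1232 CPM (461 to 2932) untreated and 1158 CPM (566 to 2471) treated. Of 5 fibroblast markers 0 were higher and 2 lower, with summed medians of 555 CPM (148 to 2991) and 494 CPM (292 to 1122), and of 5 endothelial markers 1 was higher and 3 lower, with 144 CPM (87.2 to 188) and 140 CPM (92.1 to 191). Their part in the metformin differences was not tested for fibroblasts and endothelial cells. With scores that included adipocyte markers in the model, Gsr and Sod2 were still called.

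Glrx2 differed with metformin in opposite directions on the diets. The interaction was -0.093 ± 0.022 on the log2 scale (adjusted p = 0.033). On log2 CPM the difference of treated from untreated animals was 0.041 ± 0.016 (SE) on 10% fat and -0.046 ± 0.017 on 44% fat. The call was lost with limma voom (-0.091, adjusted p = 0.40), which called 0 of 17740 genes for this interaction (1444 at an unadjusted p under 0.05), and Glrx2 was called neither in the lower range alone (-0.078, adjusted p = 0.22) nor in the upper (-0.11, adjusted p = 0.99). For metformin by sex, 3.12% of all genes and 0 members were called by edgeR, with 1 at an unadjusted p under 0.05, Hmox1 (-0.14 ± 0.053, adjusted p = 0.12), and 0 by limma voom at either threshold.

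Txnrd1, which did not pass the test for metformin over all strains, differed between strains in its metformin difference (adjusted p = 2.9e-05, 19 terms), in a comparison that called 11.6% of all genes and 1 member. On log2 CPM, adjusted for sex and diet, the strain differences ran from -0.17 to 0.26, with 10 of 20 above 0. The upper end of that scale was (CC043/GeniUncJ x CC042/GeniUncJ)F1, from 57.2 ± 7.94 CPM (n = 25) untreated to 68.6 ± 8.31 CPM (n = 12) treated. At the lower end were (CC012/GeniUncJ x CC002/UncJ)F1, from 66.1 ± 8.30 CPM (n = 24) to 58.3 ± 4.12 CPM (n = 12), and (CC002/UncJ x CC043/GeniUncJ)F1, from 73.7 ± 12.45 CPM (n = 24) to 64.9 ± 5.66 CPM (n = 12), both at -0.17. In mean CPM the rise was larger in (CC051/TauUncJ x CC059/TauUncJ)F1, from 74.4 ± 12.5 CPM (n = 24) to 95.2 ± 95.1 CPM (n = 12), where 1 treated library had 396 CPM and the treated median was 69.2 CPM, and on the adjusted log2 scale that strain was at 0.091. The call held without the library that had the highest Txnrd1 (adjusted p = 1.6e-05), and without that library Hmox1 was called as well (adjusted p = 0.029, against 0.11 with it). In the upper range alone the Txnrd1 call was lost (adjusted p = 0.66).

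That library came from a treated female on 44% fat of (CC051/TauUncJ x CC059/TauUncJ)F1, in the lower identifier range, with 40.03M counts. Its Txnrd1 was 396 CPM, 5.70 times the median of the other 35 libraries of its strain, which ran from 55.6 to 105.3 CPM, and the next highest library in the series had 112.6 CPM. It was also the highest of all 703 for Hmox1, at 13.8 CPM against a strain median of 3.83, and for Gsr, at 32.2 against 17.5 CPM. Gclc was 16.1 CPM against 9.97, Nqo1 20.4 against 12.7 and Gclm 16.8 against 10.9, while Gpx1, at 29.7 CPM, was close to the strain median of 30.4. Sod2 lay low, at 153 CPM, below the other libraries of the strain, which ran from 186 to 251 CPM. Of 83 other antioxidant genes, 5 were the highest of all libraries there, Srxn1, Sqstm1, Mafk, Glrx and Prdx6. Others of the 83, Chac2, Prdx3, Msrb1 and Nqo2, were the lowest of all 703 libraries there. Against the strain median, 6 of the 83 were more than 2-fold higher and 3 more than 2-fold lower. Srxn1, sulfiredoxin, which repairs overoxidised peroxiredoxins, had 237 CPM against a strain median of 18.5. Genes outside the lists, picked after the values were seen, were high as well, with the metallothionein Mt2 at 155 CPM against 2.39 and the interferon-induced Irgm1 at 283 against 12.1. The macrophage markers summed to 128 CPM, the fourth highest of all libraries, and the hepatocyte markers to 0.894 CPM. Without it, the metformin difference of Txnrd1 over all strains was 0.0015 ± 0.017 in place of 0.033 ± 0.020, and neither was called.

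**Figure D4:**
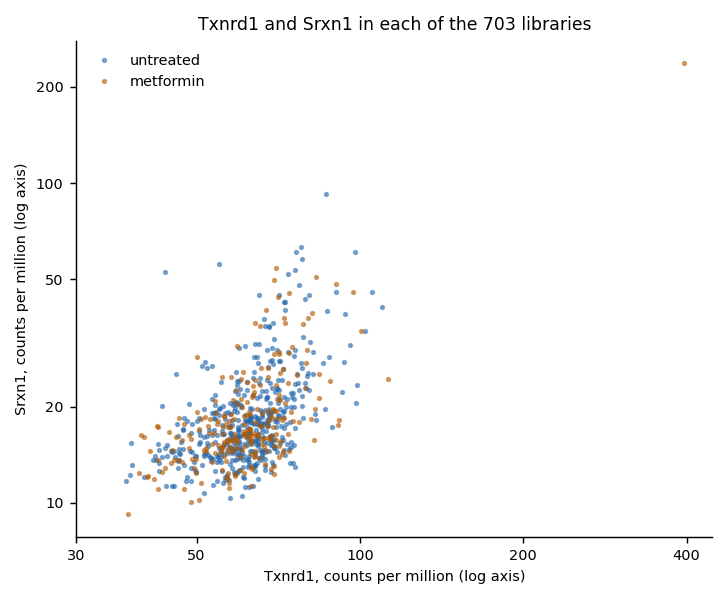
Txnrd1 against Srxn1 in CPM (both log axes), with 1 point for each of the 703 libraries, coloured by treatment. A single treated library lies apart at 396 CPM of Txnrd1 and 237 CPM of Srxn1, with the next highest at 112.6 and 92.2 CPM.

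The members were then compared with each other over the 469 untreated libraries, as correlations between residuals after strain, sex, diet and range. Of 45 pairs, 17 passed the test by both Pearson's r and Spearman's rho (two-sided permutation tests with 100000 resamples, adjusted over the 45 pairs), and all 17 were positive. For 8 pairs both p-values were 1e-05, the smallest that these permutations can give. Sod1 and Gpx1 were the closest pair, at r = 0.58 and rho = 0.52, with r = 0.53 in the lower and 0.72 in the upper range. Nqo1 and Gsr had r = 0.38 and rho = 0.38, with 0.39 and 0.25 in the ranges. Sod2 and Glrx2, both mitochondrial, had r = 0.37 and rho = 0.35, with 0.35 and 0.44. Gpx1 and Hmox1 had r = 0.37 and rho = 0.37, with 0.38 and 0.36, and r fell to 0.24 with marker scores in the model. Leaving out the 2 libraries farthest from the median of the first gene gave r of 0.58, 0.38, 0.40 and 0.39 for these pairs.

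Txnrd1 followed both subunits of glutamate-cysteine ligase, with r = 0.33 and rho = 0.33 for Gclm and r = 0.26 and rho = 0.23 for Gclc. In treated animals the r for Gclm was 0.59, and 0.55 without the library that stood apart. The subunits themselves were not called as a pair, with r = 0.20 (p = 3e-05, adjusted p = 0.00011) but rho = 0.086 (p = 0.064), and r was 0.065 without the libraries that carried hepatocyte markers. Over the fitted means of the 20 strains, by contrast, Gclc and Gclm had r = 0.70, given as a description, since strains share lines. Nqo1 did not follow Gclm (r = -0.032) or Txnrd1 (r = 0.097, adjusted p = 0.066, permutation test) among all untreated libraries. For Gclm its r was -0.079 in the lower and 0.27 in the upper range. In treated animals the r of Nqo1 was 0.22 for Gclm and 0.32 for Txnrd1. Without the library that stood apart these were 0.18 and 0.29.

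**Figure D5:**
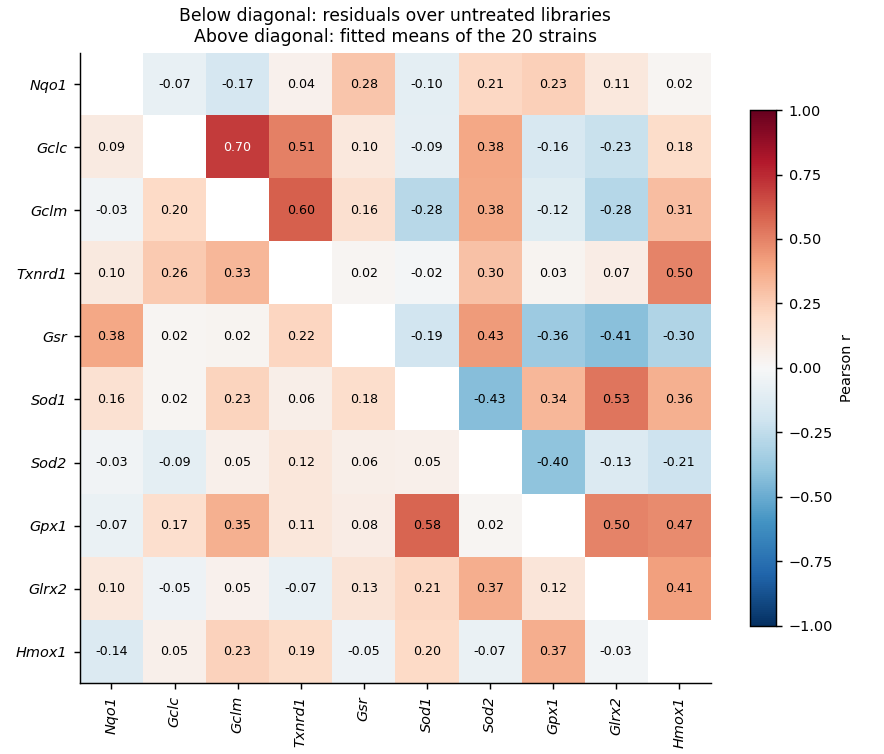
Pearson's r between members over residuals of the 469 untreated libraries (below the diagonal) and over the fitted means of the 20 strains (above it). Sod1 and Gpx1 are the closest pair over libraries, at 0.58, and Gclc and Gclm over strains, at 0.70.

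Outside the members, 10121 named genes averaging 1 or more on the log2 CPM scale were ranked by likeness, as a description with no test. Over untreated residuals (n = 469), Txnrd1 was most like Mafg (r = 0.65), which encodes a small MAF partner of NRF2, and Srxn1 (r = 0.60). Nqo1 was most like Sqstm1 (r = 0.47), which encodes p62, a protein that binds KEAP1, and Rasd2 (r = 0.46). Gsr was most like Nfe2l1 (r = 0.59), which encodes a factor related to NRF2, and Cnksr1 (r = 0.54). Sod2 was closest to Sucla2 (r = 0.78) and Isca1 (r = 0.77), which encode mitochondrial proteins. Sod1 was closest to Edf1 (r = 0.76) and the ferritin heavy chain Fth1 (r = 0.74), and Gpx1 to the ferritin light chain Ftl1 (r = 0.79) and Slc25a39 (r = 0.67). Hmox1 was also closest to Ftl1 (r = 0.46), then to Grn (r = 0.46). Gclc was closest to Vtn and Ass1 (both r = 0.39) and Gclm to Cyp2e1 (r = 0.40) and Igf1 (r = 0.39). The ranking kept the untreated libraries with hepatocyte markers, 11 on 10% fat and 12 on 44% fat. Gclc and Gclm averaged higher in libraries with these markers than elsewhere, and the part of those libraries in this likeness was not tested. Glrx2 was closest to Ptp4a2 (r = 0.51) and Asnsd1 (r = 0.46).

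Over the fitted means of the 20 strains, Hmox1 was again like Ftl1 (r = 0.69), after Klc4 (r = 0.73), and for the other 9 members both leading genes differed from those over residuals. For Sod2 they were Zdhhc14 (r = 0.89) and Zfp213 (r = 0.82), which lie 7.39 Mb and 10.5 Mb from it on the same chromosome. Sod1 was closest to the glutathione transferase gene Gstp1 (r = 0.84) and Aup1 (r = 0.81), Nqo1 to Ptx3 (r = 0.85) and Cnot11 (r = 0.82), and Txnrd1 to Sap30l and Tbl3 (both r = 0.73). For Gpx1 they were Zbtb7b (r = 0.81) and Exosc1 (r = 0.78), for Glrx2 Psmd4 (r = 0.79) and Smyd5 (r = 0.78), and for Gsr Armcx5 (r = 0.76) and Hpn (r = 0.74). Gclc was closest to Baz1b (r = 0.79) and Pfkfb2 (r = 0.78), and Gclm to Brox and Ppm1j (both r = 0.81).

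Of the regulators of the pathway, Nfe2l1 and Mafk were higher on 44% fat, while Nfe2l2, Keap1 and Bach1 did not pass the test. These are RNA levels, and NRF2 protein and its activity were not measured. Nfe2l2 averaged 27.9 ± 4.72 CPM in untreated animals (n = 469) and had a diet log2 fold change of 0.0052 (adjusted p = 0.90), Keap1 45.7 ± 5.91 CPM and 0.0053 (adjusted p = 0.84), and Bach1 26.2 ± 6.04 CPM and 0.038 (adjusted p = 0.12). With metformin they gave -0.023, -0.0055 and 0.0074, none past the test. Of the 9 regulators listed, 2 were higher on 44% fat, Nfe2l1 (0.12 ± 0.013, adjusted p = 2.3e-17) and Mafk (0.086 ± 0.029, adjusted p = 0.020), and 0 were lower, where 10.1% of all genes were called higher and 10.1% lower. With metformin 2 were higher, Sqstm1 (0.051 ± 0.016, adjusted p = 0.014) and Nfe2l1 (0.037 ± 0.012, adjusted p = 0.014), and 0 lower, where 8.34% of all genes were called higher and 11% lower.

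Of 83 other genes in the 8 lists, 14 were higher and 18 lower on 44% fat, against 10.1% of all genes in each direction, the background for the counts that follow. Tkt, a transketolase of the pentose phosphate route, had the largest difference (-0.74 ± 0.078, adjusted p = 2.5e-17), and Pgd of the same route, which yields NADPH, fell with it (-0.19 ± 0.034, adjusted p = 1.2e-06). Of 8 genes of NADPH supply, 4 were lower and 2 higher. Catalase, which breaks down hydrogen peroxide, was higher (Cat, 0.27 ± 0.024, adjusted p = 2.4e-23), as was the extracellular dismutase Sod3 (0.21 ± 0.030, adjusted p = 1.9e-09). Of the 20 glutathione peroxidases, transferases and glutaredoxins outside the members, 3 were higher and 6 lower, with the microsomal Mgst1 at -0.13 ± 0.045 (adjusted p = 0.022). Of 16 thioredoxin and peroxiredoxin genes, 4 were higher and 1 lower, Sesn2 at 0.11 ± 0.028 (adjusted p = 0.0015) and Prdx4 at -0.12 ± 0.027 (adjusted p = 0.00028). Of 8 genes of glutathione synthesis, 0 were higher and 1 lower. Of 14 quinone, carbonyl and haem genes, 0 were higher and 4 lower, Cbr2 among them (-0.18 ± 0.040, adjusted p = 0.00012). Of 5 iron genes, 1 was higher, the iron exporter Slc40a1 (0.11 ± 0.020, adjusted p = 4.7e-06), and 2 lower, among them Ftl1 (-0.071 ± 0.021, adjusted p = 0.0081).

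With metformin, 4 of the 83 were higher and 20 lower, with a median log2 fold change of -0.025 against -0.0022 over all genes. Of all genes 8.34% were called higher and 11% lower, the background for the counts that follow. The lower ones included 9 of the 20 glutathione peroxidases, transferases and glutaredoxins and none of them was higher, with Gpx8 at -0.15 ± 0.030 (adjusted p = 4.8e-05) and Gstm2 at -0.14 ± 0.022 (adjusted p = 3.0e-08). Of the 16 thioredoxin and peroxiredoxin genes 6 were lower and 1 higher, Txnip, which encodes an inhibitor of thioredoxin (0.15 ± 0.026, adjusted p = 3.8e-06), and Msrb1 was at -0.10 ± 0.017 (adjusted p = 3.3e-07). Sod3 was at -0.094 ± 0.028 (adjusted p = 0.0095) and Idh1 at -0.087 ± 0.024 (adjusted p = 0.0050). Of the 14 quinone, carbonyl and haem genes 3 were lower, Cbr2 among them (-0.10 ± 0.037, adjusted p = 0.033), and 1 higher, Abcc1 (0.064 ± 0.016, adjusted p = 0.0017). Of 8 genes of glutathione synthesis and 5 of iron, 0 were called. These are values of all 703 libraries, and the upper identifier range alone called 1 gene of 17683 for metformin.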

How the data were processed

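Gastrocnemius RNA of 703 mice was sequenced, 1 library per animal. The authors deposited an estimated count per gene and library, allocated among the founder genomes of each strain with EMASE within GBRS on GRCm38, as whole numbers for 19088 genes. The authors also deposited log2-scale values from the variance-stabilising transformation of DESeq2, which served here as an alternative. Allocation among founder genomes can affect strain differences where genes share sequence. Groups came from the sample labels. Counts were fitted with edgeR 4.0.16 (R 4.3.3) by its quasi-likelihood test, with TMM normalisation, a filter on low counts over the 8 groups, and terms for strain, sex, diet, identifier range and, where treated animals entered, metformin. P-values were adjusted by Benjamini-Hochberg over all genes tested, with calls at 0.05. CPM used TMM-scaled totals, and log2 CPM a prior count of 2. Counts of strains with a given sign came from log2 CPM within each strain, without a term for identifier range. Each animal gave 1 library, and total counts were 27.4M to 96.1M. Alternatives used RLE size factors, no filter, each identifier range alone, no range term, limma voom (limma 3.58.1), DESeq2 1.42.0, the variance-stabilised values, marker scores, and the removal of libraries against their labels. The removal of libraries with hepatocyte markers and of the library with the highest Txnrd1 was chosen after seeing the data. The edgeR step was tried on simulated untreated libraries without strain, sex or range differences. The planted diet changes were all larger than those of the members in untreated animals, so changes as small as theirs were not covered. Members and gene lists were chosen with earlier results of these data known. Of each list, up to 2 called genes with the largest change in diet and in metformin and an average of 1 or more on the log2 CPM scale were named, with Nfe2l2, Keap1 and Bach1, and for likeness the 2 genes with the highest r.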

Additional observations from a re-analysis of the deposited data

Results flagged for a closer look

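The difference between treated and untreated animals in Glrx2 differed between the diets (interaction -0.093 ± 0.022 on the log2 scale, adjusted p = 0.033, edgeR). It differed in Txnrd1 between the 20 strains (adjusted p = 2.9e-05, edgeR). Both were singled out because the interaction itself passed the test. The Glrx2 call held in 3 of 6 alternatives, and was lost with limma voom and in each identifier range alone. The Txnrd1 call held in 5 of 6, and was lost in the upper range alone (adjusted p = 0.66, edgeR). Age cannot be told apart from metformin in either.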

How the results depend on the processing

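No paired analysis was possible because the labels give every library the same replicate number and 1 animal per library. The upper identifier range, with 159 libraries, changed the most. Alone it called 0 members for diet, 2 for sex, 9 for strain (Hmox1 lost, adjusted p = 0.16), 0 for metformin, 1 for diet in treated animals, 1 for diet by strain, 0 for metformin by diet, 0 for metformin by strain, and 6 member pairs. The lower range called 0 and limma voom 0 for metformin by diet, and leaving out the library with the highest Txnrd1 gave 2 for metformin by strain. The upper range held 159 libraries, 90 of them treated, and the lower range 544, 144 of them treated. The cause of these changes was not tested. Signs turned in 32 member values. For diet these were, in the upper range, Nqo1 (-0.043), Sod2 (-0.0049) and Glrx2 (-0.011), and Glrx2 without libraries against their labels (-0.0036). For sex they were Txnrd1 (-0.0072) and Gpx1 (-0.0085) in the upper range and Glrx2 with marker scores (-0.0012). For metformin, Sod1 turned with RLE size factors (0.00064), in the lower range (0.011), without libraries against their labels (0.011), without a range term (0.0017), with limma voom (0.00084), DESeq2 (0.00061), variance-stabilised values (0.0030) and marker scores (0.0057), and without hepatocyte-marker libraries (0.0089). Glrx2 turned with RLE size factors (0.0011), in the lower range (0.0063), without libraries against their labels (0.0031), without a range term (0.017), with DESeq2 (0.0011) and with variance-stabilised values (0.00047). In the upper range Nqo1 (-0.053), Gclc (-0.022), Txnrd1 (-0.015), Gsr (-0.034) and Sod2 (0.00096) turned. For diet in treated animals, Txnrd1 (-0.0012) and Hmox1 (-0.026) turned in the lower range, Nqo1 (0.030) and Sod1 (-0.0039) in the upper, and Txnrd1 without its highest library (-0.0082). Of the other member values, 471 kept direction and call, 16 lost the call and 4 gained it.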
